A study of Mus musculus with 8 samples.

Results

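The breakdown of the branched-chain amino acids leucine, isoleucine and valine was followed through 10 genes. They were chosen by name for their role in the pathway, though with earlier results of these data known. They are the aminotransferases Bcat1 and Bcat2, the branched-chain ketoacid dehydrogenase subunits Bckdha, Bckdhb and Dbt, the kinase Bckdk and the phosphatase Ppm1k that act on this complex, and Ivd, Mccc1 and Hibch from later steps. All 10 were found among the 55383 genes of the deposited table, and all 10 passed the filter on low values (10 or more normalized counts in 2 or more of the hearts compared), as did 14522 genes in total.

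RNA of whole mouse hearts at about 5 weeks of age was sequenced to ask how loss of mtSSB, the mitochondrial single-stranded DNA binding protein encoded by Ssbp1, affects transcripts. Knockout hearts (genotype Ssbp1-/- in the labels, n = 2) came from mice in which loxP-flanked Ssbp1 was deleted by a Cre recombinase under the muscle creatine kinase promoter Ckmm, which acts in cardiomyocytes and skeletal muscle. Control hearts (genotype Ssbp1+/+ in the labels, n = 2) came from mice without this deletion, and both groups had an inbred C57BL/6N nuclear background. The paper's figures give the controls of this knockout as L/L, with loxP-flanked Ssbp1 and no Cre. The labels do not say whether these controls carried loxP. Cells of the heart other than cardiomyocytes keep an intact Ssbp1 in the knockouts, and the labels do not say which animals carried Cre. Another 2 hearts, of mice 585H and 586H, have a title and a genotype entry that contradict each other and enter no comparison.

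Branched-chain amino acids are broken down inside mitochondria. A reversible transamination turns them into ketoacids, which the ketoacid dehydrogenase commits irreversibly to oxidation, and separate routes then lead to acetyl-CoA and, for isoleucine and valine, to succinyl-CoA. The complex is switched off when BCKDK phosphorylates its alpha subunit and switched on when PPM1K removes the phosphate, and the heart is a tissue known to oxidize both the amino acids and their ketoacids.

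Of the 14522 genes tested, 0.117% (17) passed the test, 0.0757% (11) higher and 0.0413% (6) lower in knockouts. None of the 10 genes passed in either direction, a count that this share gives for any list this short. Their transcripts differed by little between the groups: for the 9 genes other than Bcat1 the 95% interval of every fold change, knockout over control, lay between 0.681 and 1.39, so that a 2-fold difference in either direction lay outside the interval. Ivd and Ppm1k gave the smallest p-values and were both lower in both knockout hearts than in both controls, with differences of -18.1% and -16.9%, but at adjusted p-values of 0.773 and 0.806 (limma). Dbt was the only one of the 10 with both knockout values above both control values. Outside the catabolic steps, the leucine importer gene Slc7a5 and the leucyl-tRNA synthetase gene Lars were called higher in knockouts (adjusted p = 0.026 and 0.040, limma). Neither was called without the variance trend, and both calls depended on which hearts were included, as described further on.

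The stretches upstream of 3 genes are shown for the phosphatase and the kinase, whose ratio is described further on, and for Ivd, the gene with the smallest p-value of the 10. They come from RefSeq on GRCm38.p6 and are written in the direction of transcription: Bckdk chr7:127903823-127904072 (plus strand), Ppm1k chr6:57535488-57535737 (minus strand) and Ivd chr2:118861744-118861953 (plus strand). Capitals mark CCAAT or its reverse complement ATTGG, the core of the CCAAT box, a common promoter element.
Bckdk: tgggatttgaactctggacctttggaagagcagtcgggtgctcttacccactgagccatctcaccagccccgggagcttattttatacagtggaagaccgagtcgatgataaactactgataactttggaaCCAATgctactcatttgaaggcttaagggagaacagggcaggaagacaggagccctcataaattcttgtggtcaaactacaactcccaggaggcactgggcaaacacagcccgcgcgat
Ppm1k: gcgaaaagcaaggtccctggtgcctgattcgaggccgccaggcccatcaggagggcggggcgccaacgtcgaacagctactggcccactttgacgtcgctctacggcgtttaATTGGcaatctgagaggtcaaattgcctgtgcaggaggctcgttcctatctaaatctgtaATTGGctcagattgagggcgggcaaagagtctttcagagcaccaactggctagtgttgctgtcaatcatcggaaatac
Ivd: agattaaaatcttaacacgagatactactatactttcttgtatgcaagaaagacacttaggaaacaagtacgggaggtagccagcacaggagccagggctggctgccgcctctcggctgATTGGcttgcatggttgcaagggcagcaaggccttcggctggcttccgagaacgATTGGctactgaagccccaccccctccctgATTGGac
The Bckdk stretch held 1 match, the Ppm1k stretch 2 and the Ivd stretch 3, and 1 more match stood in the last 40 bases of the Ivd window, which are not shown because the annotation used for positions places the gene's start before them. Windows of the 250 bases before the start were given for 9 of the 10 genes, and 6 of these 9 (Bcat1, Bckdhb, Bckdk, Ivd, Mccc1 and Ppm1k) held CCAAT on either strand in at least 1 window. Counted by window, since some genes have more than 1, it stood in 6 of the 12 windows of these genes and in 33.8% of the 32851 windows of all genes. No window of the 9 genes held the motif TGATGNAA (N is any base), AAGGTCA or CACGTG on either strand, and these were found in 3.45%, 4.08% and 6.02% of all windows. A match describes letters only.

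The libraries held 25558246 and 25682093 reads in knockouts, against 24067849 and 19716305 in controls, and nuclear genes held 6568812 to 11259234 of them. Mitochondrial transcripts took 58.0% and 56.2% of the reads in knockouts and 62.7% and 66.7% in controls, so that this share differed between the groups beside every comparison below; its part in them was not tested. Ssbp1 had 170 and 163 normalized counts in knockouts, against 177 and 216 in controls (log2 fold change -0.23), a weak check of the labels, since reads of exons outside the deleted one and of cells without Cre still count. The summed markers of cardiomyocytes were 532029 to 549612 in knockouts and 528264 to 560511 in controls. Myh4, Myh1, Tnnt3 and Mylpf of skeletal muscle and Ucp1, Adipoq, Plin1 and Cidec of fat stayed under 10 in all 4 hearts. The other markers of these lists were well expressed, namely Ckm and Acta1 of skeletal muscle and Fabp4 and Cidea of fat. Ckm, Fabp4 and Cidea overlapped between groups. Acta1 had 2670 and 1662 normalized counts in knockouts, against 2801 and 4253 in controls (log2 fold change -0.71, unadjusted p = 0.0379, adjusted p = 0.798, limma). None of the tested markers, from lists for 10 cell types, passed the test, where 0.117% of all genes did. Markers that did not pass the filter on low values were not tested. Summed erythroid markers were 14926 and 41866 in knockouts and 18944 and 14398 in controls, with all 5 log2 fold changes above 0, and knockout replicate 2 stood apart in them. Summed fibroblast markers were lower in both knockouts (6584 and 6944) than in both controls (8186 and 7737), as were Ivd and Ppm1k, with 1 of 5 log2 fold changes above 0. Of 5 macrophage markers, summing to 2209 and 2141 in knockouts and 3143 and 2115 in controls, Cd68 (log2 fold change -0.86; unadjusted p = 0.0202, adjusted p = 0.754, limma) and Lyz2 (-0.41; unadjusted p = 0.0119, adjusted p = 0.680, limma) were lower in both knockouts. Adgre1 (0.049), Csf1r (0.065) and C1qa (-0.23) overlapped between groups, and 2 of the 5 log2 fold changes were above 0. The part of these cell types in the values of the 10 genes was not tested. In whole-heart RNA, fewer cells of a type and less RNA per cell cannot be told apart.

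BCAT2, the mitochondrial aminotransferase that starts the pathway in muscle, is encoded by Bcat2 (ENSMUSG00000030826.19, chr7:45570153-45589711). The gene had 428 and 418 normalized counts in knockouts, against 448 and 442 in controls. Both knockout values were just below both control values, and the values within each group lay close together. On the scale of log2(normalized count + 1) used throughout, the fold change was -0.071 (SE 0.11; adjusted p = 0.954, limma), which is a difference of -4.79% (95% interval -20.9% to 14.6%).

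Bcat1 (ENSMUSG00000030268.17, chr6:144993835-145076184), which encodes the cytosolic aminotransferase best known from brain, was barely present in these hearts. It had 13.2 and 9.95 normalized counts in knockouts and 13.7 and 16.2 in controls, from 12 to 16 reads per library. The groups did not overlap, but knockout replicate 1 was nearly at the level of control replicate 1. The log2 fold change of -0.35 had an SE of 0.49 and a 95% interval of -1.54 to 0.84, too wide at this depth to detect a 2-fold change (adjusted p = 0.947, limma). Per kilobase of exon, Bcat1 made up 1.27% and 0.984% of the 2 aminotransferase transcripts in knockouts and 1.263% and 1.51% in controls, so that Bcat2 provided nearly all of them in every heart.

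The decarboxylating first component of the dehydrogenase consists of an alpha subunit from Bckdha (ENSMUSG00000060376.7, chr7:25629946-25658981) and a beta subunit from Bckdhb (ENSMUSG00000032263.14, chr9:83925145-84124240). Bckdha, whose product carries the regulatory phosphate, had 1367 and 1092 normalized counts in knockouts and 1237 and 1359 in controls. The groups overlapped: knockout replicate 1 was the highest of the 4 hearts and knockout replicate 2 the lowest. Its log2 fold change was -0.086 (SE 0.13; adjusted p = 0.952, limma), smaller than the difference of 0.32 between the knockouts.

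Bckdhb had 246 and 247 normalized counts in knockouts, against 219 and 313 in controls. Both knockouts lay between the controls, which differed from each other by 0.51 on the log2 scale. This gave a log2 fold change of -0.084 (SE 0.19; adjusted p = 0.968, limma). Its standard error was the largest of the 9 genes other than Bcat1.

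Dbt (ENSMUSG00000000340.10, chr3:116513070-116549981) encodes the core transacylase, the lipoate-bearing component around which the complex is built. In knockouts it had 707 and 624 normalized counts, against 581 and 610 in controls. Both knockouts were above both controls, though knockout replicate 2 exceeded control replicate 2 by less than the controls differed from each other. Dbt had a log2 fold change of 0.16 (SE 0.11; 95% interval -0.12 to 0.44; adjusted p = 0.890, limma), or 11.6% higher. Without knockout replicate 1 it was 0.069, and 0.25 without knockout replicate 2.

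**Figure D1:**
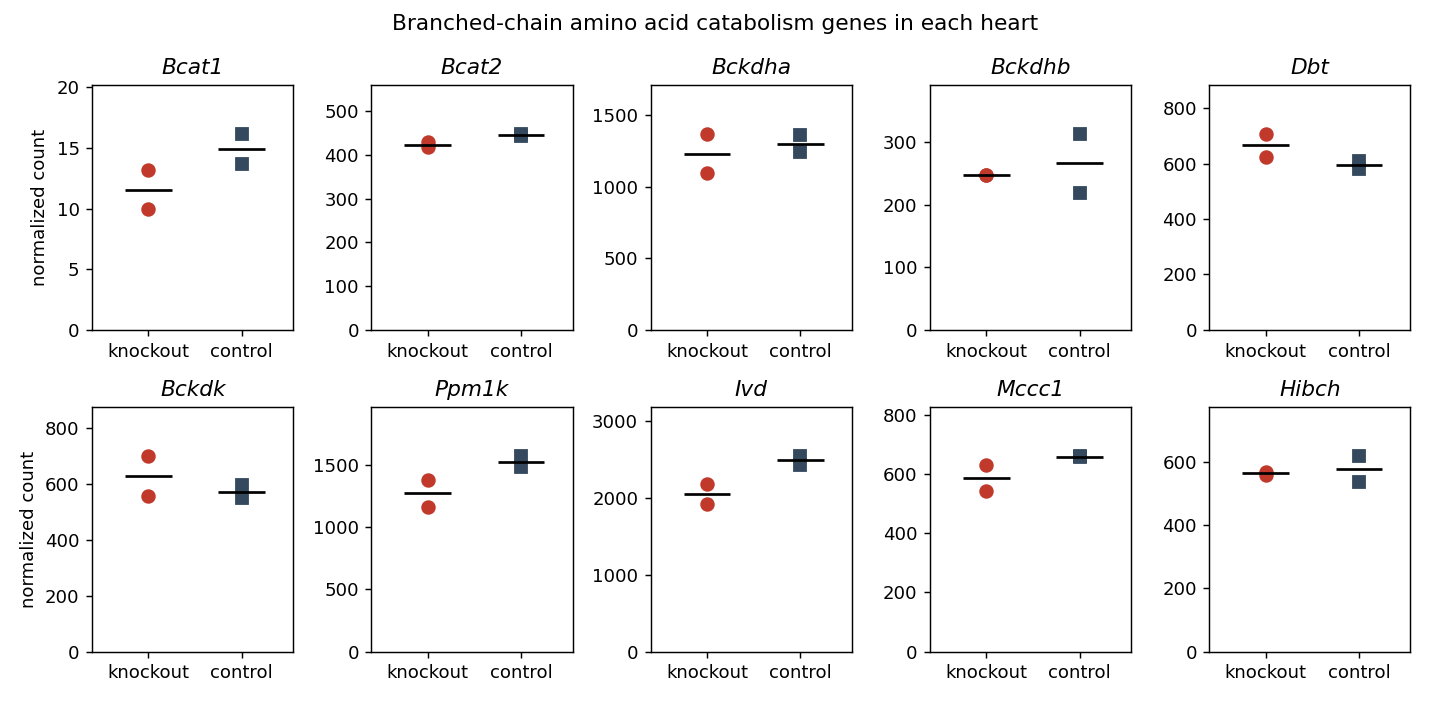
Normalized counts of the 10 genes in each heart, 1 panel per gene with its own axis from 0, knockout hearts (red circles) left of control hearts (dark squares), n = 2 each, and black lines at the group means. Ivd is lower in both knockouts (2178 and 1917) than in both controls (2553 and 2437), as is Ppm1k (1380 and 1165 in knockouts, 1574 and 1479 in controls), while the 2 groups overlap for Bckdha, Bckdhb, Bckdk and Hibch.

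The kinase that inactivates the complex is encoded by Bckdk (ENSMUSG00000030802.14, chr7:127904082-127910221). Bckdk had 702 and 558 normalized counts in knockouts and 597 and 550 in controls. Knockout replicate 1 was the highest of the 4 hearts, while knockout replicate 2 fell between the controls. Its log2 fold change was 0.13 (SE 0.14; adjusted p = 0.933, limma), and -0.039 without knockout replicate 1.

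Ppm1k (ENSMUSG00000037826.5, chr6:57506502-57535468) encodes the mitochondrial phosphatase that reactivates the complex. It had 1380 and 1165 normalized counts in knockouts, against 1574 and 1479 in controls. Both knockouts were below both controls, with knockout replicate 2 the lowest. Ppm1k had a log2 fold change of -0.27 (SE 0.11; 95% interval -0.54 to 0.0085; unadjusted p = 0.0555, adjusted p = 0.806, limma).

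Set against each other in the same heart, kinase and phosphatase transcripts gave ratios that do not depend on the scaling between libraries. Per kilobase of exon, there were 0.829 and 0.780 Bckdk transcripts for each Ppm1k transcript in knockouts, against 0.619 and 0.606 in controls. The groups did not overlap, and the mean ratios were 0.805 ± 0.035 in knockouts and 0.612 ± 0.0091 in controls (SD, n = 2 each), 1.31-fold higher in knockouts. The ratio combines values already given, was not tested, and stayed between 1.27-fold and 1.35-fold when each heart was left out in turn. Mice 585H and 586H, which enter no comparison, gave ratios of 0.673 and 0.616, both below both knockouts. The ratio of mouse 585H was above both controls, and that of mouse 586H lay between them. By title or by genotype entry, 1 of these 2 mice is a knockout. Phosphatase transcripts outnumbered kinase transcripts per kilobase in all 4 hearts.

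The subunits of the complex were compared in the same way. Dbt gave 0.293 and 0.324 per Bckdha in knockouts and 0.266 and 0.255 in controls, per kilobase of exon. Bckdhb gave 0.190 and 0.238 per Bckdha in knockouts, against 0.186 and 0.242 in controls. The first of these ratios was higher in both knockouts than in both controls (1.19-fold in the means). The second covered the same range in both groups (0.999-fold), and neither was tested. Mice 585H and 586H, which enter no comparison, gave Dbt per Bckdha ratios of 0.248 and 0.219, both below both controls and both knockouts. Whether read by title or by genotype entry, the mouse labelled knockout among them was thus below both controls.

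**Figure D2:**
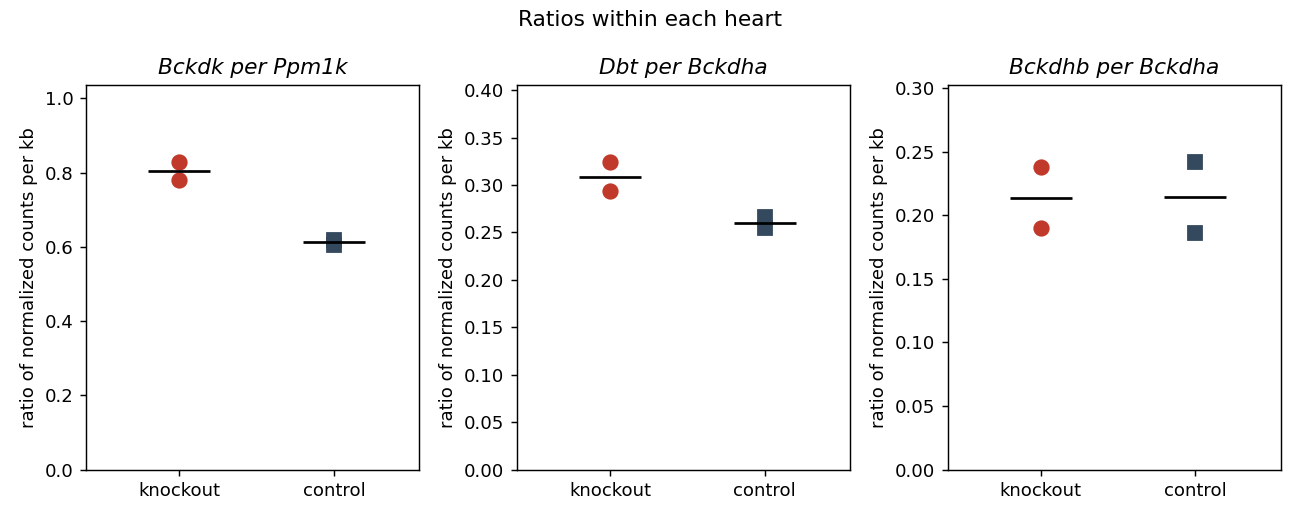
Ratios of normalized counts per kilobase of exon within each heart for Bckdk per Ppm1k, Dbt per Bckdha and Bckdhb per Bckdha, with knockout hearts (red circles) left of control hearts (dark squares), lines at the means and axes from 0. Bckdk per Ppm1k is 0.829 and 0.780 in knockouts and 0.619 and 0.606 in controls, Dbt per Bckdha is also apart, and Bckdhb per Bckdha overlaps.

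Ivd (ENSMUSG00000027332.11, chr2:118861954-118882909) encodes isovaleryl-CoA dehydrogenase, which carries out the first step of the leucine branch after the ketoacid dehydrogenase. The gene had 2178 and 1917 normalized counts in knockouts, against 2553 and 2437 in controls. Both knockouts lay below both controls, and the gap between the groups was wider than the difference within the controls and similar to that within the knockouts. The difference was -0.29 on the log2 scale (SE 0.098; 95% interval -0.53 to -0.050; unadjusted p = 0.0251, adjusted p = 0.773, limma). Ivd was the 1 gene of the 10 at an unadjusted p under 0.05 with limma, and also with edgeR and with DESeq2 on recovered reads. Of all 14522 genes, 887 (6.11%) were at such a p with limma, and the adjusted value did not pass.

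Mccc1 (ENSMUSG00000027709.9, chr3:35959312-36000678), for the biotin-carrying alpha subunit of methylcrotonyl-CoA carboxylase, the next enzyme of the leucine branch, had 544 and 630 normalized counts in knockouts. In controls it had 662 and 656. The controls nearly coincided and both knockouts were below them, knockout replicate 1 the more so. Its log2 fold change was -0.17 (SE 0.12; adjusted p = 0.883, limma), with -0.064 when knockout replicate 1 was left out and -0.28 when knockout replicate 2 was. Gm43080, a gene model on the same strand, overlaps Mccc1 by 2643 bases and had up to 83.4 normalized counts, so the share of reads given to each of the pair is uncertain.

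On the valine branch, Hibch (ENSMUSG00000041426.12, chr1:52844929-52920986) encodes the hydrolase that frees 3-hydroxyisobutyrate from coenzyme A. It had 560 and 568 normalized counts in knockouts and 536 and 620 in controls. The knockouts nearly coincided and lay between the controls. With -0.031 (SE 0.12; adjusted p = 0.981, limma), Hibch had the log2 fold change smallest in size of the 10.

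Over the 10 genes, 8 log2 fold changes were below 0 and 2 above, with a median of -0.085, while 49.5% of all genes tested were below 0. Both knockouts lay below both controls in 5 of the 10 (Bcat1, Bcat2, Ppm1k, Ivd and Mccc1), where 17.5% of all genes did, and above both controls in 1 (Dbt), where 18.1% of all genes did. The same genes were apart when libraries were scaled to equal nuclear totals. These counts are a description, since the 10 genes share the same 4 hearts. In 7 of the 10, knockout replicate 1 was higher than knockout replicate 2, and the median difference within the knockouts (0.20 on the log2 scale) exceeded the median size of the fold change (0.14) and the median difference within the controls (0.10). The fold change was larger than both within-group differences in 3 genes: Bcat2, Ppm1k and Ivd.

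Called genes among the 10 numbered 0 with edgeR (19 of 14522 genes called, 0.131%) and 0 with DESeq2 (62 called, 0.427%), which gave Bcat1 no adjusted p.

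**Figure D3:**
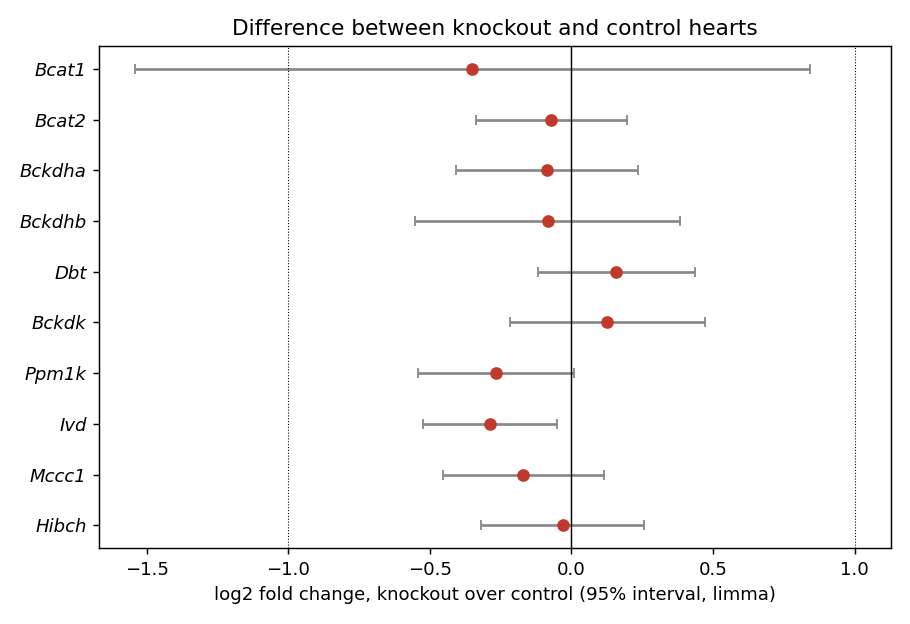
Log2 fold change, knockout over control, of the 10 genes with 95% intervals from limma (n = 2 hearts each), the solid line marking no difference and the dotted lines a 2-fold change. Every interval but that of Bcat1 lies inside the dotted lines, that of Ivd lies just below 0 (-0.53 to -0.050), and none of the 10 passed the threshold after adjustment over all genes.

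Compared per kilobase of exon, the 10 genes spanned a wide range of levels. Bckdha was highest with means of 647 in knockouts and 684 in controls, normalized counts per kilobase, and Ivd followed with 372 in knockouts and 453 in controls. Ppm1k (211 in knockouts, 253 in controls), Dbt (199 in knockouts, 178 in controls), Bckdk (170 in knockouts, 155 in controls) and Bckdhb (137 in knockouts, 147 in controls) came next, and each neighbouring pair among these 4 overlapped in its range over the 4 hearts. Bcat2 (109 in knockouts and 114 in controls), Hibch (93.1 in knockouts, 95.3 in controls) and Mccc1 (53.6 in knockouts, 60.2 in controls) were lower on this scale, and Bcat1 was lowest with 1.24 in knockouts and 1.601 in controls. Much of this order depends on the length used. Per kilobase of the longest transcript, Bcat2 averaged 203 in knockouts and 214 in controls, and per kilobase of the principal transcript, a choice made after seeing the data, 239 in knockouts and 251 in controls, in both cases ahead of Dbt, Bckdk and Bckdhb. With the principal transcript Hibch and Mccc1 came right after Ivd and ahead of Ppm1k in the means over the 4 hearts. The ranges of Mccc1 and Ppm1k overlapped, and in controls Ppm1k (mean 275) was ahead of Mccc1 (268). With either transcript length the ranges of Bckdha and Ivd over the 4 hearts overlapped. Bckdha first, Ivd next and Bcat1 last was the order of the means with each of the 3 lengths.

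The rest of the catabolic route was followed in 4 lists chosen for known roles. None of their 29 genes passed the test, a count that the 0.117% called among all genes gives for any list this short. Their median log2 fold change was -0.025, with 17 below 0 and 12 above, and both knockouts lay below both controls in 5 and above them in 4, beside 17.5% and 18.1% of all genes. None of 4 genes for the shared dehydrogenase component and lipoate attachment passed: Lipt1, a lipoyltransferase, had 50.3 and 37.5 normalized counts in knockouts and 28.3 and 25.6 in controls (log2 fold change 0.67, SE 0.31; adjusted p = 0.814, limma). Lipt2 (0.25), Dld, the dehydrogenase subunit shared with other complexes (0.025), and Lias, the lipoate synthase (-0.0095), overlapped between groups. Among 5 later leucine genes, the ketone body enzyme genes Oxct1 and Acat1 had log2 fold changes of -0.12 and -0.083, and the hydratase gene Auh had one of 0.093.

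Acadsb, the dehydrogenase gene of the isoleucine branch and counterpart of Ivd, had 989 and 914 normalized counts in knockouts, against 1123 and 1308 in controls. Both knockouts were lower, with a log2 fold change of -0.35 (SE 0.11; unadjusted p = 0.0211, adjusted p = 0.770, limma), and it was the 1 gene of the 29 with an unadjusted p under 0.05. Acad8, the corresponding enzyme gene of the valine branch, had a log2 fold change of -0.21 (290 and 259 normalized counts in knockouts, 305 and 327 in controls). Both knockouts were again the lower ones for Acad8, without passing the test (adjusted p = 0.876, limma). Hsd17b10 (log2 fold change 0.14) and Hadh (-0.094), dehydrogenases of the following steps, were next among 10 genes of these branches.

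Propionyl-CoA, the end product that isoleucine and valine share, is carboxylated by an enzyme of an alpha and a beta subunit. Its alpha subunit gene Pcca had 418 and 406 normalized counts in knockouts and 483 and 499 in controls (log2 fold change -0.25, SE 0.11; adjusted p = 0.806, limma). Both knockouts were lower for Pcca, while for the beta subunit gene Pccb (0.12) both were higher, and neither passed. Mmab (-0.18) and Mmaa (-0.15), which serve the cobalamin cofactor of the later mutase, completed the 4 smallest p-values among 10 genes tested.

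A known route of leucine into cells is an exchanger made of a light and a heavy chain. Slc7a5, the light chain of the LAT1 exchanger, had 204 and 223 normalized counts in knockouts, against 44.0 and 35.0 in controls. It rose by a log2 fold change of 2.41 (SE 0.21; adjusted p = 0.026, limma). Slc3a2, its heavy chain partner, had 374 and 449 normalized counts in knockouts and 173 and 179 in controls (log2 fold change 1.21, SE 0.15; adjusted p = 0.082, limma). Both knockouts were far above both controls for both chains, and only the light chain passed the test. Of the 8 tested transporter genes 1 passed, and Slc7a7 (log2 fold change 0.96) and Slc25a44, the mitochondrial carrier for these amino acids (0.24), overlapped between groups.

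Lars, the cytosolic leucyl-tRNA synthetase that also takes part in leucine sensing, had 1093 and 1054 normalized counts in knockouts and 541 and 534 in controls. It rose by a log2 fold change of 0.997 (SE 0.097; adjusted p = 0.040, limma), the 1 called gene of 5 in its list. Sesn2, a leucine-binding regulator of mTORC1, had 105 and 124 normalized counts in knockouts, against 48.9 and 36.4 in controls (log2 fold change 1.41, SE 0.25; adjusted p = 0.318, limma). The log2 fold changes of Sesn3 (0.21) and of the mitochondrial synthetase gene Lars2 (-0.19) were smaller and did not pass.

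With each heart left out in turn, Slc7a5 was called without control replicate 1 but not without control replicate 2, knockout replicate 1 or knockout replicate 2, at adjusted p-values of 0.0844, 0.0899 and 0.327 (limma). Lars was called in none of these 4 fits, at 0.0574 to 0.327.

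**Figure D4:**
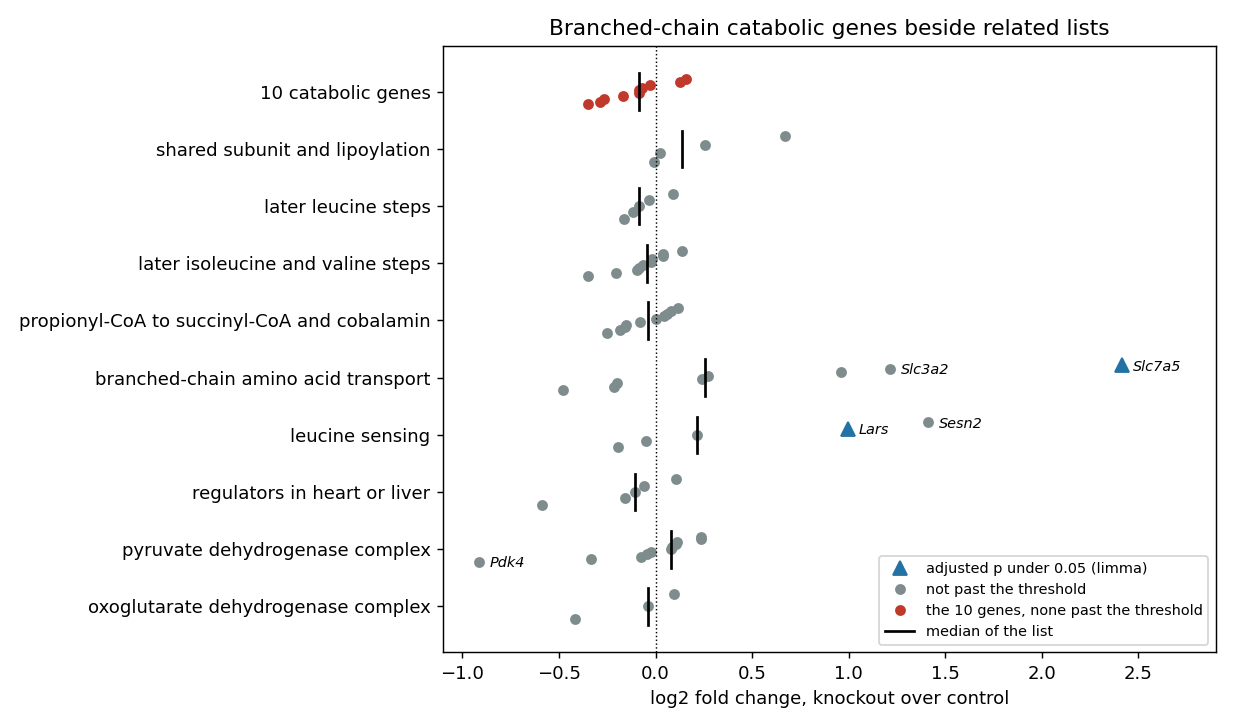
Log2 fold change, knockout over control, of the 10 catabolic genes (red) and of 9 related lists (grey circles, or blue triangles where the adjusted p from limma was under 0.05), each point a gene and each bar the median of its list. The catabolic genes cluster around 0 with none called, and the 2 called genes are Slc7a5 (2.41) and Lars (0.997).

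Regulators known from heart or liver were also measured. Klf15, a transcription factor that controls branched-chain catabolic genes in the heart, had a log2 fold change of 0.10. Pparg (-0.59), Mlxipl, which acts on Bckdk and Ppm1k in liver (-0.16), and Ppara (-0.11) were below 0, and none of the 5 genes tested passed.

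Sister complexes built on the same plan were measured as well. None of 11 genes of the pyruvate dehydrogenase complex and its kinases and phosphatases passed the test (0.117% of all genes did, so that 0 says nothing particular of a list this short), with a median log2 fold change of 0.081 beside -0.085 for the 10 branched-chain genes. Pdhb, its beta subunit gene, had 4509 and 4511 normalized counts in knockouts and 3717 and 3935 in controls (log2 fold change 0.24, SE 0.079; adjusted p = 0.773, limma). Both knockouts were higher for Pdhb, unlike its branched-chain counterpart Bckdhb, which overlapped; the difference between these genes was not tested. Pdk4, a kinase of that complex, had 1506 and 1376 normalized counts in knockouts and 1404 and 5258 in controls, so that its log2 fold change of -0.92 rested on control replicate 2. Leaving out that heart gave 0.035, whereas Pdk4 was called lower when control replicate 1 was left out (-1.87; adjusted p = 0.00606, limma). The phosphatase gene Pdp2 (-0.33) overlapped between groups, and Pdpr had a log2 fold change of 0.083.

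Of 3 genes of the oxoglutarate dehydrogenase complex, none passed. Ogdhl had 1489 and 1271 normalized counts in knockouts and 1817 and 1856 in controls (log2 fold change -0.42, SE 0.11; adjusted p = 0.647, limma), with both knockouts below both controls. Ogdh (0.097) and the core subunit gene Dlst (-0.037), the counterpart of Dbt, gave values nearer 0.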

How the data were processed

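Total RNA of whole hearts was sequenced from strand-specific TruSeq libraries. Alignment by the authors used STAR 2.7.3a and a GRCm38.p6 genome in which nuclear copies of mitochondrial DNA were masked. Salmon 1.1.0 then gave transcript counts on GENCODE vM24 (with the authors' own mitochondrial annotation), tximport summed them by gene, and DESeq2 1.26.0 size factors scaled each library. The deposited values used here are these normalized counts, a signal scaled per library; a second deposited table holds the authors' own fold changes and p-values and was not used. All of them (100%) could be turned back into whole reads within a tolerance of 0.001.

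Genes reaching 10 normalized counts in 2 or more of 4 libraries were tested on log2(normalized count + 1) with limma 3.58.1 in R 4.3.3, as a two-sided test whose variances followed a trend with the mean; the Benjamini-Hochberg adjustment covered all 14522 genes and the threshold was 0.05. Each library is 1 mouse, and limma p-values rest on the spread between 2 mice per group, moderated toward that trend over all genes tested. Alternatives covered scaling, pseudocount, filter, variance model, a replicate block, each library left out, and edgeR 4.0.16 and DESeq2 1.42.0 on recovered reads. Limma with the variance trend, edgeR and DESeq2 were tested on simulated data. Positions and lengths are from GENCODE vM21 on GRCm38, another release than the authors', and upstream sequences from RefSeq. Ratios used normalized counts per kilobase of the union of exons.

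The 10 genes and the other lists were chosen with earlier results of these data known. From each other list the text names every gene past the threshold and in any case up to 4 genes with the smallest unadjusted p; 1 gene that this rule selects is not reported here. Python 3.11.15 and matplotlib 3.10.9 drew the figures. The libraries of mice 585H and 586H, whose labels contradict each other, were left out of all comparisons.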

Additional observations from a re-analysis of the deposited data

Results flagged for a closer look

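The libraries of mice 585H and 586H belong to no group here, because their labels contradict each other: mouse 585H is titled as a control and has a knockout genotype entry, and mouse 586H the reverse. In 4 values of the 10 genes they exceeded the higher control by more than the controls differed from each other. Bckdha had 1558 normalized counts in mouse 585H and 1502 in mouse 586H, above all 4 hearts compared (1092 to 1367). Dbt had 682 normalized counts in mouse 585H. Ppm1k had 1691 normalized counts in mouse 586H. Other values fell below the lower control by more than the controls differed from each other. These were Bcat2 (407 in mouse 585H and 434 in mouse 586H), Mccc1 (629.5 and 645 in the same mice), and Ivd (2135) and Bcat1 (6.995) in mouse 585H.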

How the results depend on the processing

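None of the 10 genes, a list too short for this to say much, was called under any of the 15 alternatives. Of 149 fold changes recomputed for them, 145 kept their direction, and the lowest adjusted p was 0.532 (limma, edgeR or DESeq2). The 4 that turned each left out 1 heart. With each heart left out in turn, the log2 fold change of Bckdha was -0.25 to 0.076 (above 0 without knockout replicate 2), that of Bckdk -0.039 to 0.29 (below 0 without knockout replicate 1), and those of Bckdhb (-0.34 to 0.17) and Hibch (-0.14 to 0.074) were above 0 without control replicate 2. With hearts left out, that of Dbt was 0.069 to 0.25, that of Mccc1 -0.28 to -0.064 and that of Bcat1 -0.54 to -0.16. Over all alternatives, that of Ivd ranged from -0.38 to -0.20 and that of Ppm1k from -0.39 to -0.14. In the other lists 2 genes were called higher, 0 to 1 when each heart was left out and 0 without a variance trend; 0 were called lower, and 0 to 1 when each heart was left out. Of all genes, 11 were called higher, against 17 with a filter of at least 50, 6 without a trend, 43 with DESeq2 and 1 to 21 when each heart was left out; 6 were called lower, against 0 without a trend, 19 with DESeq2 and 4 to 12 when each heart was left out. The gene called lower was Pdk4, whose log2 fold change was -1.87 to 0.035 when each heart was left out. With 1 heart left in a group, that heart is assumed to vary like the others. Slc3a2 was called with the filter of at least 50 and with DESeq2.

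The replicate numbers are shared between groups without a stated pairing, and the deviations of same-numbered hearts had a correlation of 0.31 across genes (2 pairs). With the numbers as a replicate block, 23 genes were called higher, Slc3a2 among them, and none of the 10; Ivd had an adjusted p of 0.779 (limma). Depth limits Bcat1, with 12 to 16 reads per library.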

Other observations

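The remaining values of mice 585H and 586H are given without a group. Ivd had 2135 normalized counts in mouse 585H and 2492 in mouse 586H, and Ppm1k had 1396 in mouse 585H. As given above, Bckdk per Ppm1k per kilobase of exon was 0.673 in mouse 585H and 0.616 in mouse 586H. Dbt per Bckdha, also given above, was 0.248 and 0.219 in the same mice, below all hearts compared. The remaining genes in mouse 585H and mouse 586H had 6.995 and 16.3 normalized counts (Bcat1), 407 and 434 (Bcat2), 267 and 252 (Bckdhb), 576 and 639 (Bckdk), 629.5 and 645 (Mccc1), and 625 and 492 (Hibch). Dbt had 580 normalized counts in mouse 586H. For the called genes of the other lists, Slc7a5 had 193 normalized counts in mouse 585H and 14.9 in mouse 586H. Lars had 832 in mouse 585H and 544 in mouse 586H. In mouse 585H both genes lay above both controls and below both knockouts. In mouse 586H Slc7a5 lay below both controls and Lars just above them.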
